A study of Mus musculus with 6 samples.

Results

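The pyruvate dehydrogenase complex and the kinases that switch it off were described here through 10 genes, picked by name from the 55421 genes of the deposited count table. They were Pdha1, Pdha2, Pdhb, Dlat and Pdhx, which encode subunits, Pdk1, Pdk2, Pdk3 and Pdk4, which encode the kinases, and Pdp1, which encodes a phosphatase. The genes were chosen with the difference between the groups of this series already known, so their own differences are given as a description, with no p-value, and how many passed the threshold of the fit over all genes is given only beside the share of all genes.

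C2C12, a mouse myoblast cell line, was stably transfected with a GFP plasmid carrying 5 CTG repeats (C2C12-CUG5, the normal group) or 200 CTG repeats (C2C12-CUG200, the DM1 group), as a model of myotonic dystrophy type 1. Both lines had gone through G418 selection, and both were taken at day 4 of differentiation in low-serum medium with insulin, with 3 RNA-seq libraries per group. Only 1 stable line per group is described in the methods, so the repeat length and the line cannot be told apart. The study calls the libraries of a group biological replicates, but the sources used here do not say whether they came from separate cultures, so the spread and the p-values below are those between libraries.

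The complex sits in the mitochondrial matrix and turns pyruvate into acetyl-CoA, the step that links glycolysis to the citric acid cycle. Its E1 enzyme is built of alpha (Pdha) and beta (Pdhb) subunits, Dlat is the E2 acetyltransferase core, Pdhx is the protein that holds the E3 enzyme, and Dld is E3 itself. The Pdk kinases phosphorylate E1 alpha and so shut the complex down, and the Pdp phosphatases remove the phosphate. Pdha1 is the X-linked E1 alpha gene used by body cells, and Pdha2 is an autosomal copy without introns whose use is known from the testis.

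The gene tables placed Pdha1 on the minus strand of chromosome X, from 160122209 to 160138413 (GRCm38), and Pdha2 on the minus strand of chromosome 3, from 141210004 to 141212355. The annotated Pdha1 transcript has 11 exons and the Pdha2 transcript has 1. Their coding sequences are 1173 and 1176 bases long, and 887 of 1173 aligned bases (75.6%) are identical. The longest run that both hold is 20 bases. It is shown in capitals below with 30 bases on each side. The Pdha1 stretch covers bases 360 to 439 of its transcript, and the Pdha2 stretch covers bases 872 to 951, at chr3:141211405-141211484 on the minus strand.
Pdha1: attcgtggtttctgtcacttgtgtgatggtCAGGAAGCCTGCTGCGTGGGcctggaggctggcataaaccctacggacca
Pdha2: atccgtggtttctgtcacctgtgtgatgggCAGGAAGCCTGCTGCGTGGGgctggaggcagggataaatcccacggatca
Of the 2323 different 30-base words of the Pdha2 transcript, 0 occur in a transcript of any other annotated gene, Pdha1 included. Of the 2278 words of 75 bases, 0 are shared either.

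The starts of the genes also differ. The RefSeq promoter windows (GRCm38.p6, 250 bases before to 50 bases after the start) of both E1 alpha genes and of Pdk1 and Pdk3, the kinases whose levels were higher in every CUG200 library, are printed 5′ to 3′ on the strand of the gene. Capitals mark any of 5 short motifs found on either strand, namely the TATA box word TATAAA, the CCAAT box, the GC box word GGGCGG, the hypoxia response element core ACGTG and the forkhead word TGTTTAC. A motif on the opposite strand appears as its reverse complement, as the GC box at the end of the Pdk3 window does, and these words do not overlap each other there. The windows are chrX:160138381-160138680 (minus) for Pdha1, chr3:141212306-141212605 (minus) for Pdha2, chr2:71872974-71873273 (plus) for Pdk1 and chrX:93832101-93832400 (minus) for Pdk3.
Pdha1: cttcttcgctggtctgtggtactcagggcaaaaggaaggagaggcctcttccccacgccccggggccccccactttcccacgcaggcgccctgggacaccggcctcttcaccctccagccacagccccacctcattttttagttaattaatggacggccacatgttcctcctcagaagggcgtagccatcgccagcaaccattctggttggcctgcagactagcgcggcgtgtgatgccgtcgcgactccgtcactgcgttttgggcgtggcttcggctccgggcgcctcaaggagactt
Pdha2: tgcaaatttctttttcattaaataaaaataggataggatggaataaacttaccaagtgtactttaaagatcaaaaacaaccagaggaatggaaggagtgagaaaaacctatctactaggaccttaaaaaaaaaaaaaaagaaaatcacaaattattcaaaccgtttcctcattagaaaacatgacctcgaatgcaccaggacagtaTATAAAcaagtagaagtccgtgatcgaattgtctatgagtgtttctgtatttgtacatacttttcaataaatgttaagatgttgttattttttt
Pdk1: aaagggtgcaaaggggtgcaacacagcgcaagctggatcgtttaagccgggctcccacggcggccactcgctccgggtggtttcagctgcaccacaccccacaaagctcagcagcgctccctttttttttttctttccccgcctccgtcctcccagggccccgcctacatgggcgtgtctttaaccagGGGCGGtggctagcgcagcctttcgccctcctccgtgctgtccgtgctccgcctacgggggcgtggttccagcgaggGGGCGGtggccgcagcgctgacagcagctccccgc
Pdk3: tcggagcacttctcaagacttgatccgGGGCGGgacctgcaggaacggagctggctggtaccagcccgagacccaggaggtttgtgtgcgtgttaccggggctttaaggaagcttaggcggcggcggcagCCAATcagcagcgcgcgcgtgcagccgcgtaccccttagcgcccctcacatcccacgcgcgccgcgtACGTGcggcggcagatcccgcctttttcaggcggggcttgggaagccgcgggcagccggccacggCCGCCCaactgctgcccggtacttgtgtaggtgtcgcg
The Pdha2 window is rich in A and T. Its GC content of 29.7% is higher than that of only 0.81% of 32851 mouse promoter windows of the same length, and it holds 4 CpG sites. Its TATAAA begins 44 bases before the start, and 13.6% of all windows hold that word. The Pdha1 window has a GC content of 62.0% and 21 CpG sites, against medians of 52.7% and 7 over all windows, and holds 0 of the 5 motifs. The Pdk1 window holds 25 CpG sites and 2 copies of GGGCGG, a word found in 35.7% of windows. The Pdk3 window holds 35 CpG sites, 2 copies of GGGCGG, 1 CCAAT (in 37.4% of windows) and 1 ACGTG (in 19.6%). The Pdk1 window holds 0 copies of ACGTG. That word is also in the windows of Pdk2 and Pdhb, not printed here, whose levels overlapped between the groups. TGTTTAC, found in 3.65% of windows, is in 0 of the 4 windows printed. A match of letters is not a bound site, and 9 of the 10 genes had a window in the RefSeq table.

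The libraries held between 61707889 and 80957325 counts. A deposited count stood for 75 aligned bases, and the commonest low value was 4 counts, taken here as 1 fragment of 300 bases, so the libraries held about 15426972 to 20239331 fragments. Mitochondrial genes took 8.90% to 13.5% of the counts. All 10 genes passed the filter on low counts (filterByExpr), Pdha2 only through its CUG200 libraries. In the edgeR fit of 19005 genes, 15.9% of genes were called at an adjusted p under 0.05, 7.13% higher and 8.73% lower in CUG200. Of the 10 members, 3 were on the higher side of that threshold (Pdha2, Pdk1 and Pdk3), 1 on the lower side (Dlat) and 6 on neither. The 1 became 0 without CUG5 replicate 1, CUG5 replicate 3 or CUG200 replicate 2 and on both TPM scales, and the 3 became 2 without CUG5 replicate 2, CUG5 replicate 3 or CUG200 replicate 2, on both TPM scales and with at least 10 counts asked of every library. With the added demand of an absolute log2 fold change over 1, 2.18% of all genes were called, and 1 member, Pdha2, was among them. The scaled counts of both groups (CPM, counts scaled by library size and TMM to a common total) did not overlap in 37.2% of all genes, and in 6 members. Nothing is read from these member counts, since the members were chosen on this contrast. The median log2 fold change was 0.01 over the members and 0.02 over all genes tested. In bulk RNA, fewer cells that express a gene and less RNA per cell cannot be told apart.

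Among the E1 alpha genes, Pdha2 went from almost no reads to a few in every CUG200 library, while Pdha1, the body form, stayed far more abundant. Pdha2 had 0, 0 and 4 counts in CUG5 replicates 1, 2 and 3, and 55, 66 and 56 counts in CUG200 replicates 1, 2 and 3. In fragments this was 1 over the CUG5 group, in replicate 3, and 45 over the CUG200 group, with 14, 17 and 14 in the separate libraries. All CUG200 libraries were above all CUG5 libraries, and the only CUG5 library with a read held what 1 fragment gives. The ratio of fragments, scaled by library size, was 45.7, with an exact Clopper-Pearson 95% interval from 7.79 to 1844 that covers counting error only and is no test of the difference. A count of 0 allows up to 3 fragments, which is 0.143 CPM in CUG5 replicate 1 and 0.195 CPM in CUG5 replicate 2, and the CUG200 libraries stood at 0.740, 0.927 and 0.842 CPM. The edgeR estimate of the log2 fold change was 5.35 (SE 0.867, n = 3 per group), and it depends on how the 0 values are treated. With log2(TPM + 1) the difference was 0.61. Without CUG5 replicate 3, which leaves that group at 0, the edgeR estimate was 8.91 and is no bound.

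**Figure D1:**
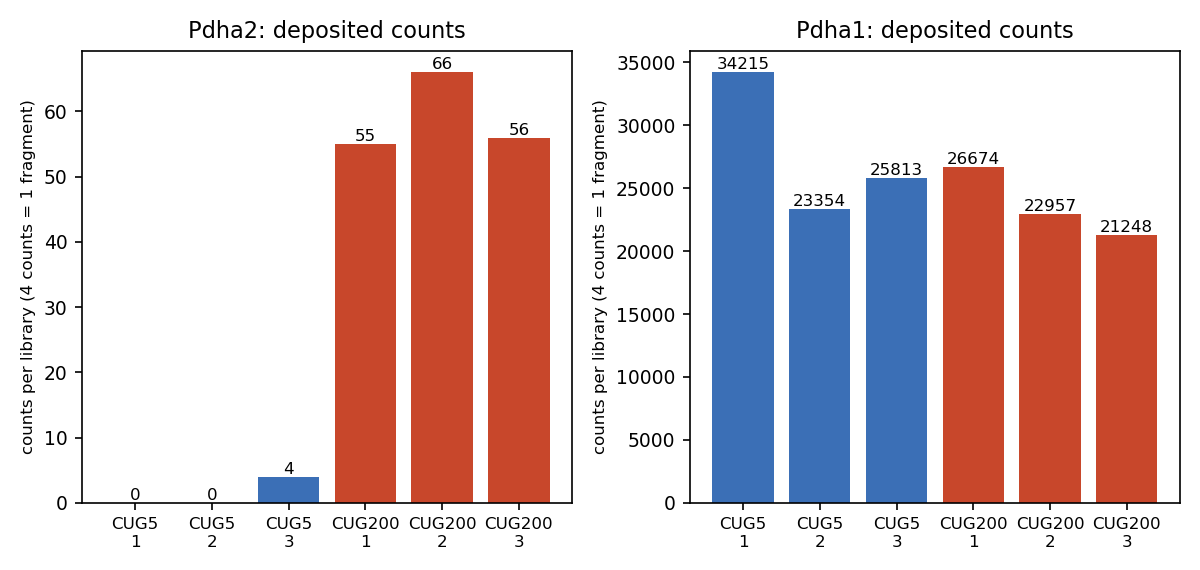
Deposited counts of Pdha2 (left) and Pdha1 (right) in the 6 libraries, 1 bar per library, CUG5 in blue and CUG200 in red, each panel with its own linear axis from 0. Pdha2 stands at 0, 0 and 4 counts in CUG5 and at 55 to 66 counts in CUG200, while Pdha1 stands at 21248 to 34215 counts in every library.

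The absolute level of Pdha2 remained low. In TPM, the deposited transcript level scaled for length and library size, which is per length and so allow levels of different genes to be set side by side, Pdha2 was listed at 0, 0 and 0.0335 in CUG5 and at 0.442, 0.586 and 0.608 in CUG200. The mean per-base coverage of its transcript was 0.109 in CUG5 replicate 3 and 1.75, 2.08 and 1.77 in the CUG200 libraries. Pdha1 was at 259, 225 and 213 TPM in CUG5 and at 181, 175 and 197 TPM in CUG200. Each CUG200 library was below each CUG5 library for Pdha1. Pdha1 outnumbered Pdha2 by 410, 299 and 323 to 1 in CUG200 replicates 1, 2 and 3. Pdha2 was thus 0.243%, 0.334% and 0.308% of the E1 alpha TPM in the CUG200 libraries (mean 0.295% ± 0.0467, SD, n = 3), against 0%, 0% and 0.0157% in CUG5. With counts divided by the length that the deposited coverage implies, in place of TPM, the mean share was 0.506% and Pdha1 outnumbered Pdha2 by 241, 173 and 188 to 1. Among the 19005 genes tested, the mean TPM of Pdha2 in CUG200 was above that of 17.2% and the mean TPM of Pdha1 above that of 96.7%.

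The table was searched for genes with at most 4 counts in every CUG5 library and at least 40 in every CUG200 library. These limits were set with the counts of Pdha2 known, so that Pdha2 passed is no finding, and the search says nothing of genes with other low or high counts. Beside Pdha2, 0 genes met both limits, and 0 genes had the reverse pattern. The surrounding genes on chromosome 3 gave no common direction. Of the 10 nearest genes tested, 5 on each side, 1 rose, 1 fell and the other 8 did not pass the test. Unc5c, a netrin receptor gene 252.9 kb away on the side of higher coordinates, rose by a log2 fold change of 0.59 (SE 0.118, edgeR adjusted p = 0.0133), a call lost without CUG5 replicate 1 or 3 (adjusted p 0.0558 to 0.0627). Pdlim5, a gene for a PDZ and LIM domain protein of muscle 1027 kb away on the same side, fell by 0.55 on the log2 scale (SE 0.0852, adjusted p = 0.00534). On that side Bmpr1b, a BMP receptor gene, had a log2 fold change of 0.48 (adjusted p = 0.179), Gbp7 one of 0.19 (adjusted p = 0.839) and Gbp3 one of 0.09 (adjusted p = 0.875). On the side of lower coordinates the nearest gene tested, Gm2451, lay 1559.6 kb away with a log2 fold change of 0.06 (adjusted p = 0.696). Beyond it Rap1gds1, Gm43162, Tspan5 and Eif4e had adjusted p values of 0.387, 0.198, 0.938 and 0.991 in the same edgeR test.

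Most other genes known from the testis and the germ line were near or at 0 in both groups. Of 15 metabolic and related isozymes of the testis, 5 (Pgk2, Ldhc, Cox8c, Slc25a31 and Tuba3b, named after their values were seen) were at 0 in every library, 10 did not reach 12 counts in any library, and the 5 that could be tested gave 0 calls with edgeR, with a median log2 fold change of -0.05. Of 17 germ cell markers, 6 were at 0 in every library and 13 stayed under 12 counts. The 2 that could be tested gave 0 calls. At an unadjusted p under 0.05, and with DESeq2 or limma on log2(TPM + 1), the count was again 0 for both lists. The summed TPM of the germ cell list ran from 2.55 to 3.41 in CUG5 and from 2.10 to 3.03 in CUG200, ranges that overlap. Most of this sum was 1 gene, Sycp1, which encodes a protein of the meiotic synaptonemal complex and is named here after its values were seen. It was at 1.78 to 2.85 TPM in CUG5 and at 1.59 to 1.86 TPM in CUG200, with a log2 fold change of -0.26 (SE 0.195, edgeR adjusted p = 0.419).

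The body forms of the E1 subunits were at the top of the order of levels, and Dlat, the E2 core, was in the 7th place in both groups. In CUG5 the order by mean TPM was Pdha1 (233 ± 23.9, SD), Pdhb (176 ± 10.5), Pdk1 (72.0 ± 7.72), Pdp1 (29.3 ± 2.17), Pdk3 (27.2 ± 3.10), Pdhx (24.6 ± 1.03), Dlat (19.5 ± 2.36), Pdk2 (12.01 ± 0.880), Pdk4 (11.7 ± 1.31) and Pdha2. The ranges of Pdp1 and Pdk3, of Pdk3 and Pdhx and of Pdk2 and Pdk4 overlapped, so those neighbours were not told apart, and the other neighbours did not overlap. In CUG200 Pdk3 stood alone in the 4th place, above Pdp1 and without overlap. There the ranges of Pdp1 and Pdhx, of Dlat and Pdk4 and of Pdk4 and Pdk2 overlapped. The Dlat range (12.45 to 15.87 TPM) also lay inside that of Pdp1 (11.6 to 30.6 TPM) and overlapped that of Pdk2 (8.90 to 13.25 TPM). The 7th place of Dlat in CUG200 was thus not told apart from the 5th, 8th or 9th.

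**Figure D2:**
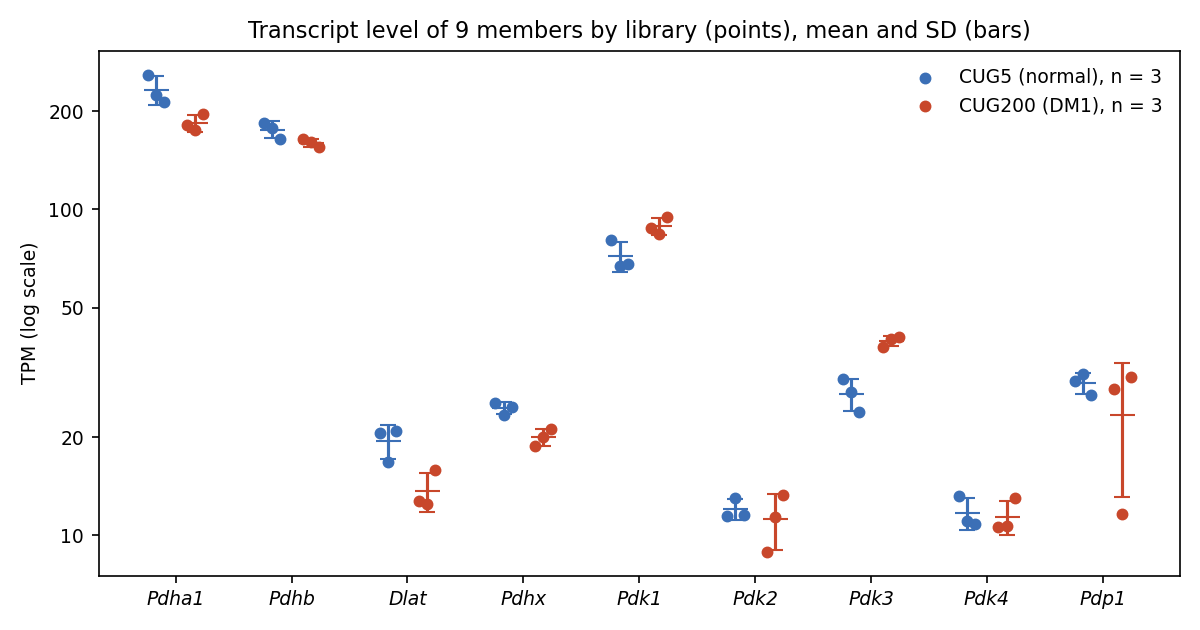
TPM of 9 members in each library on a log axis, CUG5 in blue and CUG200 in red, points for the 3 libraries per group, with the mean as a horizontal bar and 1 SD as the error bar. Pdha2 is left out because it is listed at 0 in 2 libraries. Pdk1 and Pdk3 stand higher in CUG200 and Pdha1, Dlat and Pdhx lower without overlap, and 1 CUG200 library stands apart for Pdp1.

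Of the subunits, Dlat, the E2 core, was lower in CUG200 by the widest margin, Pdha1 and Pdhx were lower by less, and Pdhb gave the same mean CPM in both groups. Dlat was at 42.6, 38.3 and 45.3 CPM in CUG5 and at 28.9, 30.4 and 32.7 CPM in CUG200. The groups did not overlap and the log2 fold change was -0.46 (SE 0.0968), a mean of 42.1 ± 3.52 CPM against 30.7 ± 1.89 CPM (SD, n = 3). Pdha1 was at 407, 380.3 and 369.5 CPM in CUG5 and at 358.8, 322.3 and 319.6 CPM in CUG200, again without overlap, with a log2 fold change of -0.21 (SE 0.0868). For Pdha1 the gap between the nearest libraries of the groups was small beside the spread within each.

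Pdhx, the E3-binding protein, was at 34.8, 34.3 and 37.3 CPM in CUG5 and at 33.4, 31.7 and 29.9 CPM in CUG200, with a log2 fold change of -0.16 (SE 0.0875). Its groups were separate but nearly touched. Pdhb, the E1 beta subunit, was at 156.2, 164.5 and 154.1 CPM in CUG5 and at 176.6, 161.4 and 136.8 CPM in CUG200, with a log2 fold change of 0.00 (SE 0.105). The CUG5 CPM values of Pdhb lay wholly inside the CUG200 range. In TPM its means were 176 in CUG5 and 160 in CUG200, with overlap. The difference with log2(TPM + 1) was -0.13. The ratio of Pdha1 to Pdhb in TPM was 1.32 ± 0.0731 in CUG5 and 1.15 ± 0.101 in CUG200, and these ranges overlapped too.

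Some of these reads may be shared with other genes. The 3′ end of Pdha1 overlaps Map3k15 on the opposite strand, and 16.1% of the 30-base words of Pdha1 occur in another gene. Map3k15 had 116, 155 and 194 counts in CUG5 and 242, 382 and 360 in CUG200, small beside the counts of Pdha1. For Pdhb the share was 18.5%, most of it with Gm6123. Dlat, Pdk2 and Pdk3 shared 0 words of that length. The strand setting of the counting is not given in the sources used here, so reads of the overlapping genes cannot be told apart.

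The kinases did not move as a group. Pdk1 and Pdk3 were higher in every CUG200 library than in any CUG5 library, while Pdk2 and Pdk4 overlapped between the groups. Pdk1, the kinase gene known as a target of hypoxia-inducible factor, was at 206.2, 180.7 and 180.1 CPM in CUG5 and at 274.4, 247.4 and 239.8 CPM in CUG200. Its log2 fold change was 0.43 (SE 0.0941), from a mean of 189 ± 14.9 to 254 ± 18.2 CPM. Pdk3, a second X-linked member beside Pdha1, was at 34.8, 34.4 and 29.7 CPM in CUG5 and at 56.4, 54.7 and 48.1 CPM in CUG200. This was the widest separation among the kinases, with a log2 fold change of 0.69 (SE 0.101) and means of 33.0 ± 2.83 and 53.1 ± 4.37 CPM.

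Pdk2, a kinase of broad tissue use, was at 13.5, 16.7 and 15.8 CPM in CUG5 and at 13.6, 16.3 and 16.5 CPM in CUG200, with a log2 fold change of 0.01 (SE 0.129). Pdk4, the kinase gene known to be induced by fasting and fatty acids in muscle, was at 25.4, 22.8 and 23.1 CPM in CUG5 and at 25.8, 24.3 and 26.0 CPM in CUG200. Its log2 fold change was 0.09 (SE 0.0931), and the ranges overlapped. On the TPM scale the Pdk4 difference took the other sign, -0.03 at the lowest, so its direction is not settled.

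**Figure D3:**
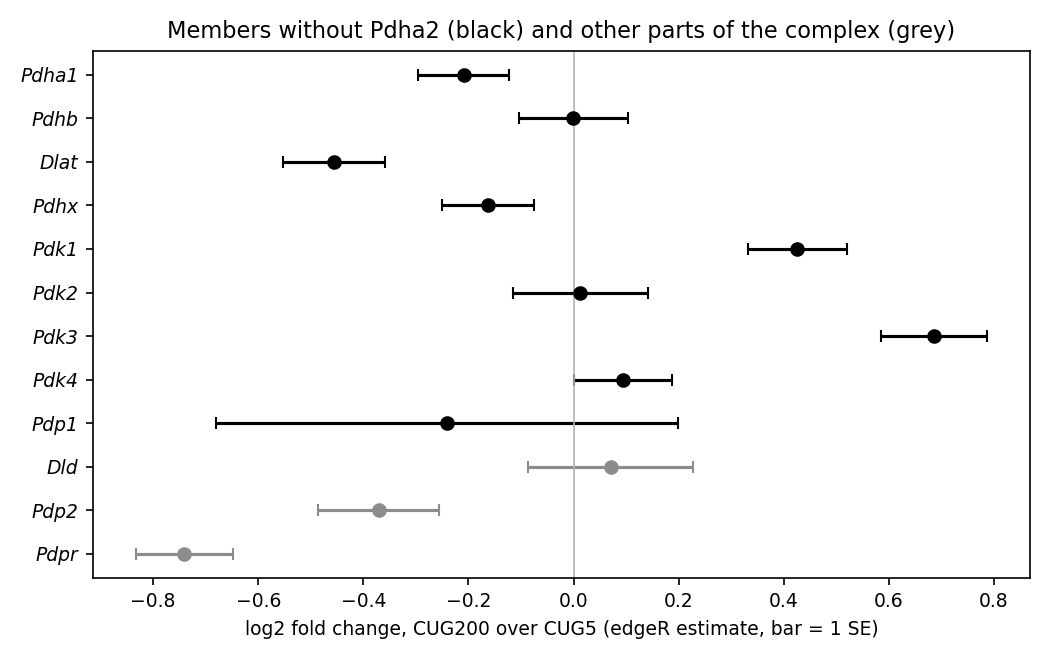
Log2 fold change of CUG200 over CUG5 by the edgeR fit, with 1 SE as the bar, for 9 members in black (Pdha2, at 5.35, is left out to keep the scale) and for Dld, Pdp2 and Pdpr in grey. Pdk3 at 0.69 and Pdk1 at 0.43 lie farthest to the right and Pdpr at -0.74 farthest to the left, and Pdp1 has the widest error bar.

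Summed over the 4 kinases, the TPM was 123 ± 11.3 in CUG5 and 151 ± 9.23 in CUG200 (SD, n = 3). Pdk1 made up most of it in both groups, 58.5% ± 1.74 and 59.0% ± 1.46, with overlap. Pdk3 made up 22.2%, 23.2% and 20.9% in the CUG5 libraries and 26.0%, 27.3% and 25.1% in the CUG200 libraries. The shares of Pdk2 (9.85% and 7.37%) and of Pdk4 (9.50% and 7.54%) were lower in CUG200, both without overlap. The shares sum to a fixed total, so a higher share of Pdk3 lowers the others. Set against the transcript of E1 alpha, the protein that the kinases act on, the kinase sum was 0.522, 0.528 and 0.535 of the Pdha1 TPM in CUG5. It was 0.801, 0.836 and 0.822 in CUG200. The spread of this ratio within each group was small beside the distance between the groups. It joins genes that the selection already set apart, and so it is a description of the same contrast.

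**Figure D4:**
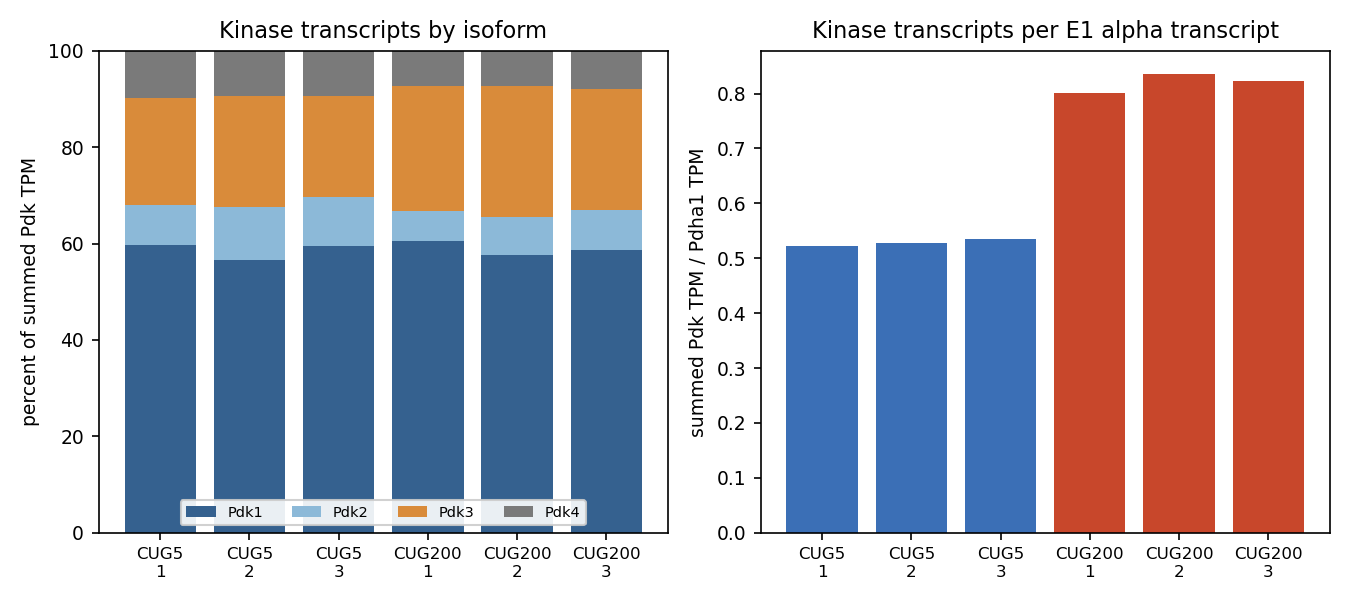
Left, share of each Pdk gene in the summed kinase TPM of each library in percent. Right, the summed kinase TPM divided by the Pdha1 TPM in each library, CUG5 in blue and CUG200 in red. Pdk1 takes 56.5% to 60.5% of the kinase TPM in all 6 libraries, and the ratio is 0.522 to 0.535 in CUG5 and 0.801 to 0.836 in CUG200.

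The phosphatase gene Pdp1 was set by a single library. It was at 61.5, 68.0 and 63.2 CPM in CUG5 and at 74.4, 23.1 and 65.5 CPM in CUG200. CUG200 replicate 2 stood at 37.6% of the lowest other library, and the mean of the remaining CUG200 libraries was 69.9 CPM. The log2 fold change was -0.24 (SE 0.439) with all libraries and 0.12 without CUG200 replicate 2. A drop of this kind was rare in that library, seen in 14 of 9632 genes with a median of at least 10 CPM, or 0.145%, where the other libraries had 7 to 19 such genes each. Kinase TPM over the sum of Pdp1 and Pdp2 was 3.94, 3.33 and 3.60 in CUG5 and 4.67, 10.01 and 4.66 in CUG200, so the value of 10.01 rests on the same library.

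Of the 3 parts of the complex outside the members, Pdpr fell, and Dld and Pdp2 did not pass the test. Pdpr, the regulatory subunit of the phosphatase, had 2279, 1634 and 1936 counts in CUG5 and 1148, 1172 and 1119 counts in CUG200. All CUG200 libraries were lower, and Pdpr fell by 0.74 on the log2 scale (SE 0.0921, edgeR adjusted p = 0.0027). Pdpr shares bases with 9430091E24Rik on the other strand, which had 64 to 99 counts. Pdp2, the other phosphatase, had 1277, 957 and 1176 counts against 876, 817 and 902, with a log2 fold change of -0.37 (SE 0.115, adjusted p = 0.0605). Pdp2 passed the threshold with DESeq2 (adjusted p = 0.0436) and, with edgeR, without CUG200 replicate 3 (adjusted p = 0.0269). Dld, the E3 enzyme that other dehydrogenases share, had a log2 fold change of 0.07 (SE 0.157, adjusted p = 0.815).

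Among the lists of genes around the complex, most genes called higher came from 1 list, the hypoxia-response genes. These lists were chosen with earlier results of these data known, so their counts and adjusted p values serve as a description only. Over 7 lists of pathway genes, members left out, 85 genes could be tested, of which 13 rose, 12 fell and 60 did not pass, with a median log2 fold change of -0.04 against 0.02 over all genes tested. The hypoxia-response list held 11 of the 13, and the other 6 lists, with 69 genes tested, had 2 higher and 12 lower. Among the fits that leave out 1 library, the counts over all 7 lists were 8 higher and 4 lower without CUG5 replicate 3. They were 8 and 8 without CUG5 replicate 2, 9 and 6 without CUG5 replicate 1 and 9 and 5 without CUG200 replicate 2. Of 15 pyruvate carriers and pyruvate and lactate enzymes tested, 2 rose and 3 fell, with a median of 0.01. Slc16a3, the lactate exporter MCT4, rose by a log2 fold change of 0.70 (SE 0.0940, edgeR adjusted p = 0.00329), and Bsg, its chaperone, by 0.28 (adjusted p = 0.0482). Pcx, pyruvate carboxylase, fell by 0.87 on the log2 scale (adjusted p = 0.0147), Me3, a mitochondrial malic enzyme, fell by 0.72 (adjusted p = 0.0402) and Gpt2, the mitochondrial alanine aminotransferase, fell by 0.42 (adjusted p = 0.0179). The calls of Bsg, Me3 and Gpt2 were the least firm. Bsg was not called without any 1 library but CUG200 replicate 1 (adjusted p 0.0518 to 0.171), Me3 without any 1 but CUG200 replicate 3 (0.0638 to 0.146), and Gpt2 without CUG200 replicate 2 or any 1 of the CUG5 libraries (0.0614 to 0.087). Pcx was not called without CUG5 replicate 3 (0.0694). Slc16a3, Bsg, Me3 and Gpt2 were not called with either TPM scale.

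In the citric acid cycle, 3 of 15 enzymes fell and 0 rose, with a median log2 fold change of -0.04. Among them Cs, citrate synthase, which takes up the acetyl-CoA, fell by 0.45 on the log2 scale (SE 0.0795, edgeR adjusted p = 0.00847), and Sdhc, a succinate dehydrogenase subunit, fell by 0.36 (adjusted p = 0.0196). Of 8 tested genes of the sister dehydrogenases of other 2-oxoacids, 2 fell and 0 rose, with a median of -0.34. These were Dlst, the E2 core of the 2-oxoglutarate complex and so the counterpart of Dlat, which fell by 0.35 (adjusted p = 0.0162), and Ogdhl, a form of its E1, which fell by 0.73 (adjusted p = 0.0399). Of 10 tested genes that supply lipoate and thiamine, the cofactors of E2 and E1, 0 passed in either direction with edgeR, at an unadjusted p under 0.05, with DESeq2 or with limma on log2(TPM + 1). The call of Cs was lost without CUG5 replicate 3 (adjusted p = 0.0527). The calls of Sdhc and Dlst were lost without CUG200 replicate 2 or any 1 of the CUG5 libraries (adjusted p 0.0569 to 0.108 and 0.0618 to 0.0791), and that of Ogdhl without any 1 library but CUG5 replicate 2 (0.0702 to 0.145). Ogdhl was also not called when the replicate number was added to the edgeR fit as a block (adjusted p = 0.07795).

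Pdk4 is known to follow PPAR, FOXO and PGC-1 factors, and of 18 such regulators and shared targets tested, 3 fell and 0 rose, with a median of -0.18. Ppargc1a, the coactivator PGC-1 alpha, fell by 0.78 on the log2 scale (SE 0.135, edgeR adjusted p = 0.00816), Acadl, a fatty acid oxidation enzyme, fell by 0.47 (adjusted p = 0.00979) and Ucp2, a mitochondrial carrier, fell by 0.42 (adjusted p = 0.0142). The call of Acadl was lost without CUG200 replicate 2 (adjusted p = 0.0515), and that of Ucp2 without CUG200 replicate 2, CUG5 replicate 1 or CUG5 replicate 3 (0.0554 to 0.0787). That of Ppargc1a was lost with either TPM scale. At an unadjusted p under 0.05, 1 gene of this list was higher and 0 of the citric acid cycle or sister lists, and with DESeq2 0 were called higher in any of the 3. Pdk4 itself had a log2 fold change of 0.09, with overlapping groups, as given above.

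Of 16 tested hypoxia-response genes, listed because Pdk1 is known to be regulated with them, 11 rose and 0 fell, with a median log2 fold change of 0.46. Pdk1 and this list were both chosen with earlier results of these data known, so the calls are a description and no separate evidence. The count of 11 was 7 without CUG5 replicate 2 or without CUG5 replicate 3, 8 to 10 without any other library, and 6 with limma on log2(TPM + 1) or log2(TPM + 0.1). Ero1l, an oxidase of protein folding, rose by 1.16 (SE 0.130, edgeR adjusted p = 0.00204), and Car9, a carbonic anhydrase, by 0.82 (SE 0.0958, adjusted p = 0.0022). Egln3, an oxygen-sensing prolyl hydroxylase, rose by 0.73 (adjusted p = 0.00277), Bnip3, a mitophagy receptor, by 0.73 (adjusted p = 0.00327) and P4ha1, a collagen prolyl hydroxylase, by 0.56 (adjusted p = 0.0054). The call of P4ha1 was lost with either TPM scale. The log2 fold change of Pdk1, 0.43, lay near the median of this list. The 5 genes of the list that did not pass were Hif1a (-0.03), Egln1 (-0.06), Slc2a1 (0.01), Kdm3a (-0.13) and Mxi1 (0.17), named here after their values were seen. Hif1a encodes the oxygen-regulated factor, and Slc2a1 encodes the glucose transporter GLUT1. At an unadjusted p under 0.05, and with DESeq2, 0 genes of the list were lower. No oxygen level is given in the methods, and the reason for these values was not tested.

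**Figure D5:**
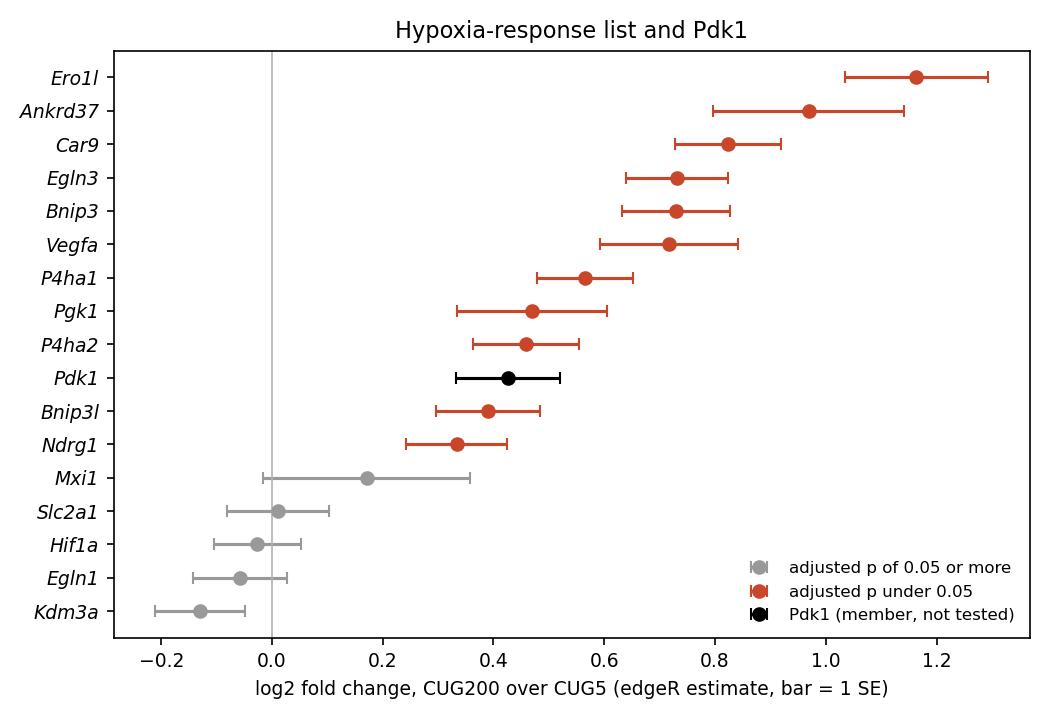
Log2 fold change of CUG200 over CUG5 by the edgeR fit, with 1 SE as the bar, for the 16 hypoxia-response genes tested and for Pdk1. Red marks the 11 genes with an adjusted p under 0.05 and grey the 5 without, and Pdk1, in black and given without a test, lies at 0.43.

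Muscle markers moved with the groups as well. All 15 skeletal muscle markers passed the filter on low counts, and 12 of them fell and 0 rose, with a median log2 fold change of -0.68. Myh8, the perinatal myosin, fell by 2.90 (SE 0.136, edgeR adjusted p = 7.7e-05), and Ckm, muscle creatine kinase, fell by 0.84 (adjusted p = 0.00159). Actn2 fell by 1.22 (adjusted p = 0.00211), Myog, the differentiation factor, fell by 0.65 (adjusted p = 0.00227) and Myh3 fell by 1.32 (adjusted p = 0.0027). The summed TPM of the muscle markers was 13560 to 15960 in CUG5 and 8887 to 10820 in CUG200. Of 6 fibroblast markers 4 rose and 0 fell, with a median of 0.63, and their summed TPM was 1522 to 1798 in CUG5 and 1790 to 2158 in CUG200, ranges that overlap. The methods describe C2C12 myoblasts and no fibroblasts in these cultures. At an unadjusted p under 0.05, and with DESeq2, 0 muscle markers were higher and 0 fibroblast markers lower. The fibroblast markers that rose were Col1a1 (1.06, adjusted p = 0.000916), Dpt (1.08, adjusted p = 0.00304), Lum (0.81, adjusted p = 0.01) and Dcn (0.45, adjusted p = 0.0281). Of 5 adipocyte markers 4 were at 0 in every library and none could be tested, and of 6 blood and endothelial markers 3 were at 0 and the 1 that could be tested did not pass. The call of Dcn was lost without CUG200 replicate 2 or any 1 of the CUG5 libraries (adjusted p 0.0665 to 0.115 by edgeR). The part of these shifts in the lower Dlat and Pdha1 and the higher Pdk1 and Pdk3 was not tested.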

How the data were processed

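Total RNA of 6 C2C12 samples was sequenced. The authors trimmed reads with Trim Galore, aligned them to GRCm38 with HISAT2 and quantified genes with StringTie (versions and annotation are not given in the sources used here). They deposited counts per gene without normalization, and per library the coverage, FPKM and TPM values of StringTie, which scale for transcript length and depth. Counts were used for the main tests. The deposited coverage was used for the unit of a count, and TPM, with FPKM as a check, for levels and shares.

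Groups came from the sample labels. Counts were filtered (filterByExpr, minimum count 10), scaled by TMM (factors 0.940 to 1.05) and tested with edgeR 4.0.16 quasi-likelihood (robust, no covariate, biological coefficient of variation 0.221) in R 4.3.3, with Benjamini-Hochberg adjustment over 19005 genes. The code was tested on simulated counts. CPM are TMM-scaled. The deposited count unit of 75 bases matched coverage in 99.8% to 99.9% of genes with 1 transcript, within 1 count. Sequence words were compared with GENCODE M21 transcripts, and promoters come from RefSeq.

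The members and lists were chosen with earlier results of these data known. The genes named are the members, up to 5 called genes per list by p, all 3 other parts of the complex, the 5 tested neighbours of Pdha2 on each side and genes with its on and off pattern; 1 gene that the rule names is not reported here. Alternatives were DESeq2 1.42.0, its size factors, library size alone, other filters, counts as fragments, limma 3.58.1 on log2(TPM + 1) or log2(TPM + 0.1), a replicate block and leaving out each library.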

Additional observations from a re-analysis of the deposited data

How the results depend on the processing

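The members Pdha1, Dlat, Pdhx, Pdk1 and Pdk3 kept their direction in all 15 alternatives, and Pdha2 in the 14 that gave it a value (it failed the filter of 10 counts in every library). Pdhb and Pdk2 kept the sign in 9 of 15, Pdk4 in 13 and Pdp1 in 14. The log2 fold change of Pdha2 was 0.61 with log2(TPM + 1), 2.54 with log2(TPM + 0.1) and 4.72 to 8.91 when single libraries were left out. The highest value, without CUG5 replicate 3, leaves that group at 0 and is no bound. The share of Pdha2 in E1 alpha was 0.506% from counts divided by length, and 0.276% to 0.321% when single CUG200 libraries were left out. Of all genes tested, 1356 were called higher and 1660 lower. These counts were 427 and 816 with log2(TPM + 1), 434 and 850 with log2(TPM + 0.1), 259 and 155 with an absolute log2 fold change over 1, and 543 to 1678 and 485 to 2111 when single libraries were left out. Of the pathway genes, 13 were higher and 12 lower. These were 6 and 5 with either TPM scale, 1 and 0 with the fold demand, and 8 to 13 and 4 to 14 when single libraries were left out. Among the fits that leave out 1 library, the lowest counts over all genes came without CUG5 replicate 3 (543 and 485). Calls lost without single libraries are given with each gene. With either TPM scale, those of P4ha1, Ppargc1a, Slc16a3, Unc5c, Bsg, Me3, Gpt2, Sdhc, Dlst, Ogdhl and Dcn were lost, and Me3 had a log2 fold change of -0.13 at the smallest. Bsg was also not called with library size alone or with no filter beyond 1 count. Pdpr was called in all 15. Libraries of the same replicate number did not deviate together (r = 0.055, 0.017 and 0.017), and a replicate block gave 1326 genes higher and 1497 lower and a Pdha2 log2 fold change of 5.53. With the block Ogdhl was not called (edgeR adjusted p = 0.07795), and the block changed no other call of a gene named here. The cause of these shifts was not tested. Depth limits Pdha2, since 45 fragments carry its CUG200 level.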
